A study of Mus musculus with 2 samples.

Results

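The Eph, semaphorin, netrin and slit families supply most of the classical guidance cues of the embryo, and 50 of their genes were read in posterior tissue of mouse embryos. The genes were taken by name, as ligands and receptors of these families. All 50 had a probe on the array, and 45 were detected, among 25842 detected genes of 32734 with a probe. Detected means well above the local background, by the scanner software's flag, in the same genotype on both arrays. Tissue came from embryos of 13 somites. One group was heterozygous for Cdx2 and lacked Cdx4 (Cdx2+/-Cdx4-/-), and the other was wildtype. RNA of 7 embryos was pooled per genotype, and both pools were hybridised together on 2 dual-colour arrays with the dyes exchanged, so that the mutant pool was in Cy5 on replicate 1 and in Cy3 on replicate 2. The labels describe 1 pool per genotype and name no strain and no sex. With 1 pool each, the spread between embryos was not measured, and no test between the genotypes was made. Each ± below is the SD of the 2 arrays (n = 2) and covers technical error only.

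Guidance cues act by contact between neighbouring cells or, where they are secreted, at a distance. Eph receptors are receptor tyrosine kinases whose ligands, the ephrins, are held in the membrane: A-class ephrins by a lipid anchor, B-class ephrins by a transmembrane segment. Semaphorins signal through plexins, and the secreted class 3 semaphorins mostly need a neuropilin as co-receptor. Netrins bind Dcc and the Unc5 receptors, and slits bind the Robo receptors. In the trunk these systems are known for sharpening somite boundaries, for confining neural crest, axons and vessels to their paths through the somites, and for commissural axon crossing at the floor plate. The Cdx genes are homeobox transcription factors of the posterior embryo.

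Depth on an array is set by signal over background. Between 77.4% and 82.5% of gene spots were well above background per channel and array, and the median gene spot had a raw intensity of 146 to 159, against 91.3 to 113 at negative controls. Spots of the same probe within an array scattered with an SD of 0.16 on replicate 1 and 0.23 on replicate 2 on the log2 ratio scale. Cdx4, the gene that the mutant lacks, was 5.75-fold lower in the mutant pool (log2 ratio -2.52 ± 0.12), and Cdx2, with 1 intact copy, had -0.05 ± 0.09. In such pools, fewer cells of a type and less RNA per cell cannot be told apart. The tailbud gene T was detected in both pools (log2 ratio -0.495 ± 0.034).

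None of the 45 detected guidance genes was higher or lower in the mutant pool by 1.5-fold on each array. Of all detected genes, 0.209% were higher and 0.232% lower by that rule, so a count of 0 among 45 is near that background and is no result about the members. At 1.3-fold on each array, 3 members were higher, the B-class ephrin gene Efnb2 and the class 3 semaphorin genes Sema3e and Sema3a, and 1 was lower, the A-class ephrin gene Efna1. These are 6.67% and 2.22% of the detected members, against 0.538% and 0.751% of all detected genes. All 4 are ligands, and none of the 24 detected receptors passed. Beside those shares of all detected genes, a count of 0 among 24 is near background and is no result about receptors. The median log2 ratio was 0.01 over receptors, -0.02 over ligands and 0.00 over all detected genes. No test of these shares was made. The members were chosen with earlier results of these data known, so the gap between the shares is not independent evidence.

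**Figure D1:**
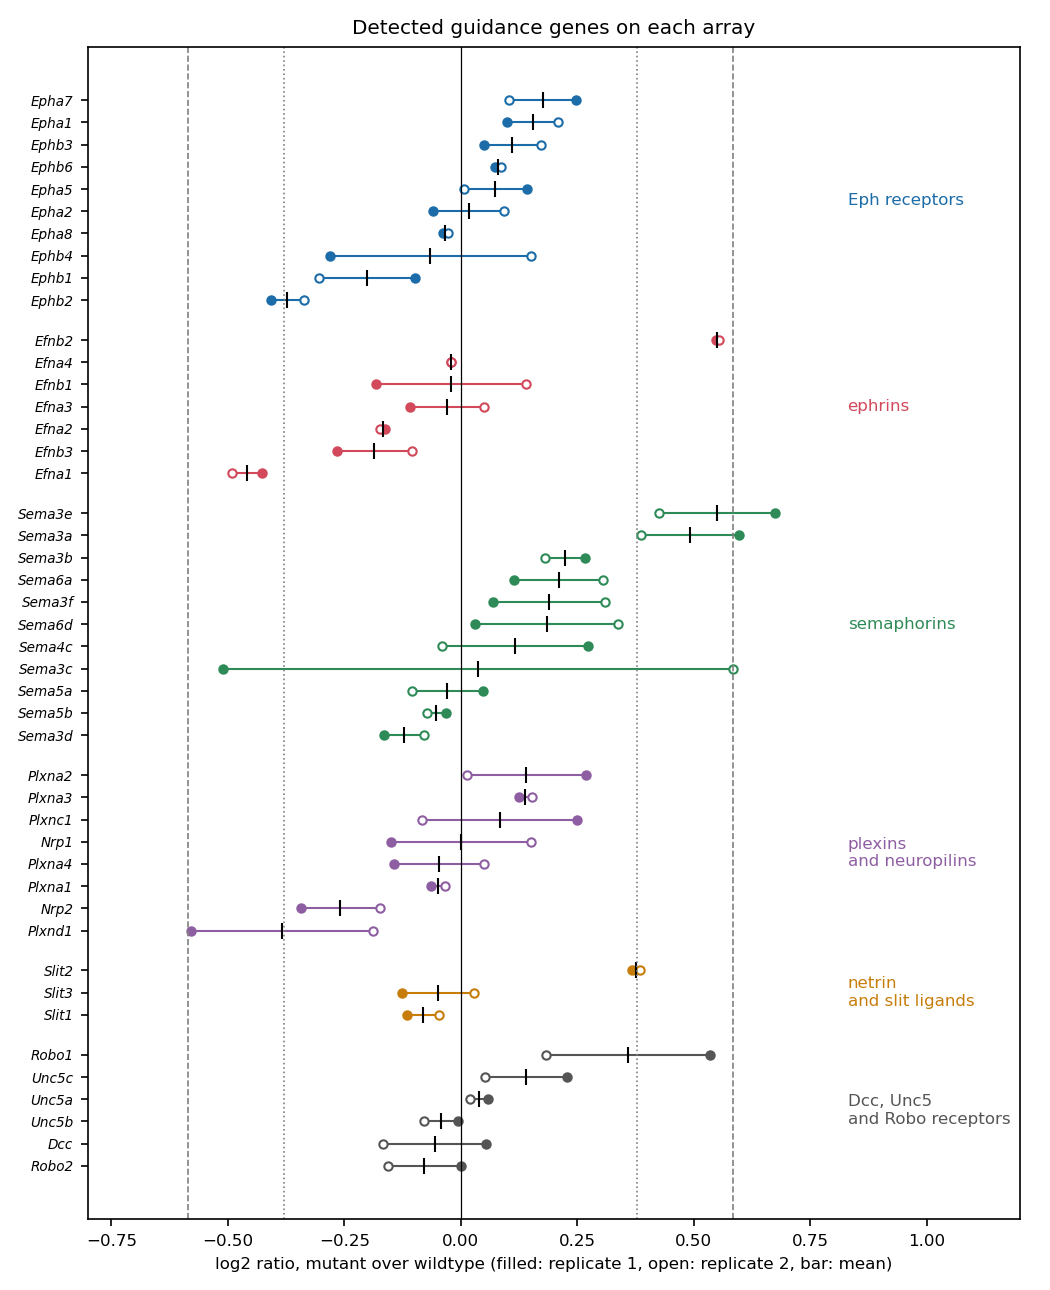
Log2 ratio of mutant over wildtype for each of the 45 detected members, by group. The x axis is the log2 ratio, with a filled point for replicate 1, an open point for replicate 2 and a bar for their mean; dashed lines mark 1.5-fold and dotted lines 1.3-fold. Both points of Efnb2, Sema3e and Sema3a lie right of the upper dotted line and both points of Efna1 left of the lower one, while Sema3c has its points on opposite sides of 0.

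The 4 members past 1.3-fold were well above background in both channels of both arrays. Efnb2 encodes ephrin-B2, a ligand found in the posterior part of each somite and on arteries. Its normalised signal was 413.5 in the mutant and 282.8 in the wildtype pool on replicate 1, and 454.8 and 309.9 on replicate 2. The mutant pool was the brighter in both dye orientations, by nearly the same factor. The log2 ratio was 0.55 ± 0.0036, 1.46-fold, and 0.317% of detected genes had a higher mean. An SD of 2 arrays below the 0.16 and 0.23 of repeated spots within an array, here or later, is no measure of precision. The Efnb2 probe lies at chr8:8635013-8635072 in the files' coordinates. No header or label names the genome build of these probe positions.

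Efna1 encodes ephrin-A1, a ligand of Epha2 that is known from endothelium and epithelia. Its signal was 1037.1 in the mutant and 1394.6 in the wildtype pool on replicate 1, and 1000.4 and 1405.8 on replicate 2. The wildtype pool was the brighter on each array. The log2 ratio was -0.46 ± 0.04, 1.37-fold lower, and 0.774% of detected genes had a lower mean. Its probe lies at chr3:89704081-89704140 in the files' coordinates.

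Sema3e encodes a secreted semaphorin that is expressed in somites and binds plexin D1 without a neuropilin. Its signal was 388.2 in the mutant and 243.2 in the wildtype pool on replicate 1, and 364.1 and 271.1 on replicate 2. The difference had the same direction on both arrays and reached 1.5-fold on replicate 1 alone. The log2 ratio was 0.55 ± 0.18. Sema3a, whose product binds neuropilin 1 and repels axons and neural crest, had 301.4 and 199.2 on replicate 1 and 242.1 and 185.2 on replicate 2. It too passed 1.5-fold on replicate 1 alone, with a log2 ratio of 0.49 ± 0.15. Probes lie at chr5:13313347-13313406 for Sema3e and chr5:12646559-12646618 for Sema3a in the files' coordinates.

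How far these 4 stand depends on the processing. With no background subtraction Efnb2 and Efna1 still passed 1.3-fold on each array, while Sema3e (0.59 and 0.37) and Sema3a (0.49 and 0.32) did not. With each array centred on its median in place of loess, none of the 4 passed. Efnb2 then had 0.91 on replicate 1 and 0.07 on replicate 2, and Efna1 0.04 and -1.12, so the arrays no longer matched although the means, 0.49 and -0.54, moved little. With a normexp offset of 16 there were 4 higher, Slit2 among them, and 1 lower at 1.3-fold, against 0.789% and 1.15% of all detected genes. With the scanner software's own ratios 5 members were higher, Slit2 and Sema6d among them, and 2 lower, Plxnd1 and Efna1, against 1.59% and 1.95%. Sema6d was detected through the mutant pool alone. Its software ratios (0.57 and 1.85) set that pool against a wildtype signal that did not clear background, so its place in this count is no support. By the software's ratios Efnb2 (0.69) and Sema3a (0.70) passed 1.5-fold on each array, as 0.642% of all detected genes did in that direction.

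**Figure D2:**
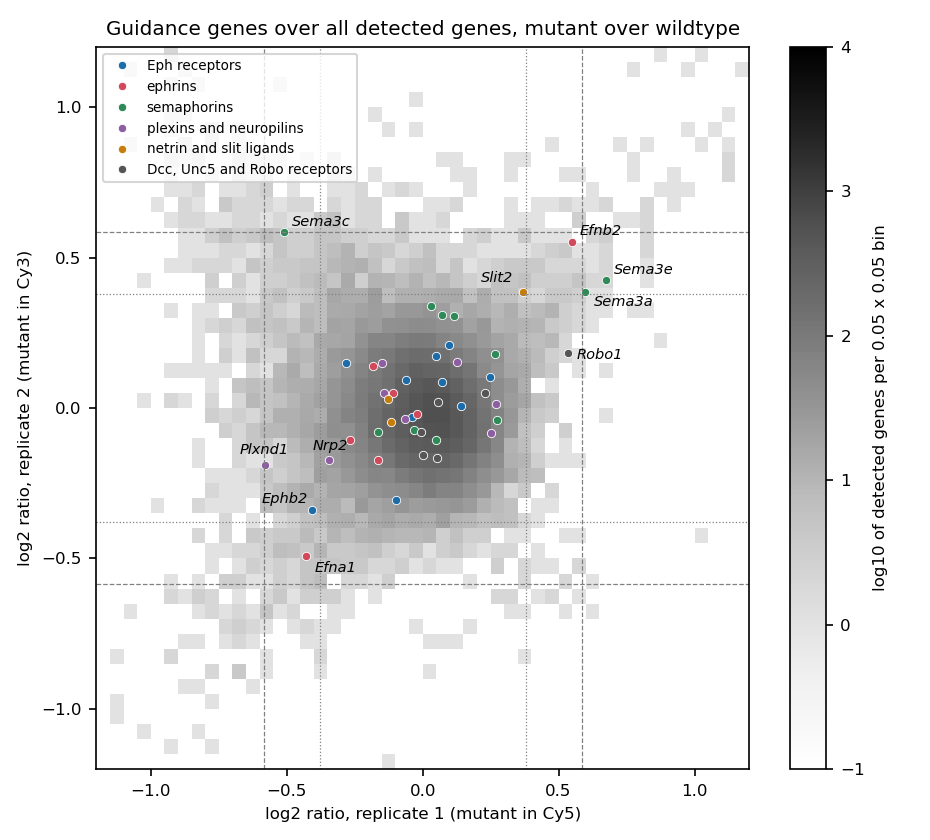
Log2 ratio of mutant over wildtype on replicate 1 (x axis) against replicate 2 (y axis), with the detected members as coloured points by group over the density of all detected genes in grey (log10 of genes per bin; 42 genes lie outside the axes). Dashed and dotted lines mark 1.5-fold and 1.3-fold; Efnb2, Sema3e and Sema3a lie in the upper right corner beyond the dotted lines, Efna1 in the lower left, and Sema3c far from the diagonal.

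The members' ratios on the arrays had a Pearson r of 0.51 over 45 genes and 0.25 over the 41 that remain without those 4, against 0.07 over all detected genes. This is a description across genes that share the same 2 arrays, and members were also brighter, with a median of the mean log2 intensity of 7.83 against 7.25. Of the members, 18 lay above 0 on both arrays, 15 below 0 on both and 12 changed sign. The SD between arrays pooled over members was 0.18, against 0.19 over all detected genes, and the median absolute log2 ratio of the members, 0.12, was smaller than that.

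The promoters of these 4 ligand genes are shown because the mutated genes encode transcription factors, whose binding sites share the core letters TTTAT. Each run is the 250 bases before the annotated start, from RefSeq in GRCm38.p6, read 5′ to 3′ on the gene's strand, with capitals marking TTTAT or its reverse complement ATAAA.

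Efnb2, chr8:8661243-8661492, minus strand: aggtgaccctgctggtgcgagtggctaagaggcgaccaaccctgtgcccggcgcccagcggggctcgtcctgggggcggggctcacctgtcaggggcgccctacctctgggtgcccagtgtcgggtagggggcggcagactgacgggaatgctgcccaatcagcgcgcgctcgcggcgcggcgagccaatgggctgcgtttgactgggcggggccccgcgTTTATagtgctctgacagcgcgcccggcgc

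Efna1, chr3:89280952-89281201, minus strand, the upstream one of 2 annotated starts: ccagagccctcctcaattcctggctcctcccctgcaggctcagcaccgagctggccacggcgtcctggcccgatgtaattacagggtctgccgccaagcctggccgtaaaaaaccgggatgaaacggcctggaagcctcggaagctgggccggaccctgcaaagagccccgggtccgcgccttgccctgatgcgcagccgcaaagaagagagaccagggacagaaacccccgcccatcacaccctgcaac

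Sema3e, chr5:14025026-14025275, plus strand: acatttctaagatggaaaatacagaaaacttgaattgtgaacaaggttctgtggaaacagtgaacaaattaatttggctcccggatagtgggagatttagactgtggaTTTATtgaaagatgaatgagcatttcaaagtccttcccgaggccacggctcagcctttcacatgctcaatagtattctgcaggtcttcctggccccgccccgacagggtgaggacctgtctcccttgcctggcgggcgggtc

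Sema3a, chr5:13396534-13396783, plus strand: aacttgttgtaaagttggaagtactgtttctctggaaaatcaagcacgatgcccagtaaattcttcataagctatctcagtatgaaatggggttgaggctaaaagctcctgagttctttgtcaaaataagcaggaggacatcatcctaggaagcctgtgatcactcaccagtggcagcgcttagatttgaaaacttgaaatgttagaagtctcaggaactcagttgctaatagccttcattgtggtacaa

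Efnb2 had 1 match, starting 30 bases before the start site, and Sema3e had 1, starting 142 bases before it. Efna1 and Sema3a had none in this window. On both strands, 37.3% of all 32851 promoters of that length held a match, against 7 of 49 (14.3%) for the 41 members that have one in the table. ATAAA is also part of the TATA box letters TATAAA. With its next base the Efnb2 match reads TTTATA, the reverse complement of those letters. The median GC content was 65.6% over members' promoters and 52.4% over all. A match is a description of letters, and no match says only that they are not in this window.

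Eph receptors, 10 of 11 detected, had a median log2 ratio of 0.05 and none passed 1.3-fold. Ephb2, a receptor for B-class ephrins that takes part in axon guidance and boundary formation, was the farthest from 0. Its signal was 1127.6 in the mutant and 1495.3 in the wildtype pool on replicate 1, and 1092.5 and 1380.3 on replicate 2. The mutant pool was dimmer on each array, with a log2 ratio of -0.37 ± 0.05. Its other probe, at a mean log2 intensity of 7.56 in place of 10.3, gave -0.02 with opposite signs on the arrays. The brighter probe spans chr4:135154130-135228990, and the dimmer one lies at chr4:135131296-135131355. Which transcripts each probe reads was not tested.

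Ephb1, the next of the Eph receptors, had signals of 180.4 in the mutant and 193.1 in the wildtype pool on replicate 1 and 161.4 and 199.2 on replicate 2. Both arrays had the wildtype pool brighter, with a log2 ratio of -0.20 ± 0.15, close to its own spread. Ephb4, the receptor of ephrin-B2 on veins, changed sign between the arrays (-0.28 and 0.15), and so did Epha2, the receptor of ephrin-A1 (-0.06 and 0.09). Ephb3 and Ephb6 had means of 0.11 and 0.08. In the A class, Epha7 had 0.18 ± 0.10, Epha1 had 0.15 ± 0.08, and Epha5 and Epha8 lay at 0.07 and -0.03. The A-class median was 0.07 and the B-class median -0.07, the latter with -0.10 on replicate 1 and 0.09 on replicate 2.

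Of the ephrins, 7 of 8 were detected, with a median of -0.03 (-0.16 on replicate 1 and -0.02 on replicate 2). Apart from Efnb2 and Efna1, the B-class gene Efnb3 had -0.19 ± 0.11, and its second probe had -0.15. Efna2 had -0.17 ± 0.0071, below 0 on both arrays and short of 1.3-fold. Efna4 was at -0.02 on each array, and Efna3 (-0.11 and 0.05) and the X-linked Efnb1 (-0.18 and 0.14) changed sign. Thus Efnb2 was the single ephrin gene above 0 on both arrays.

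**Figure D3:**
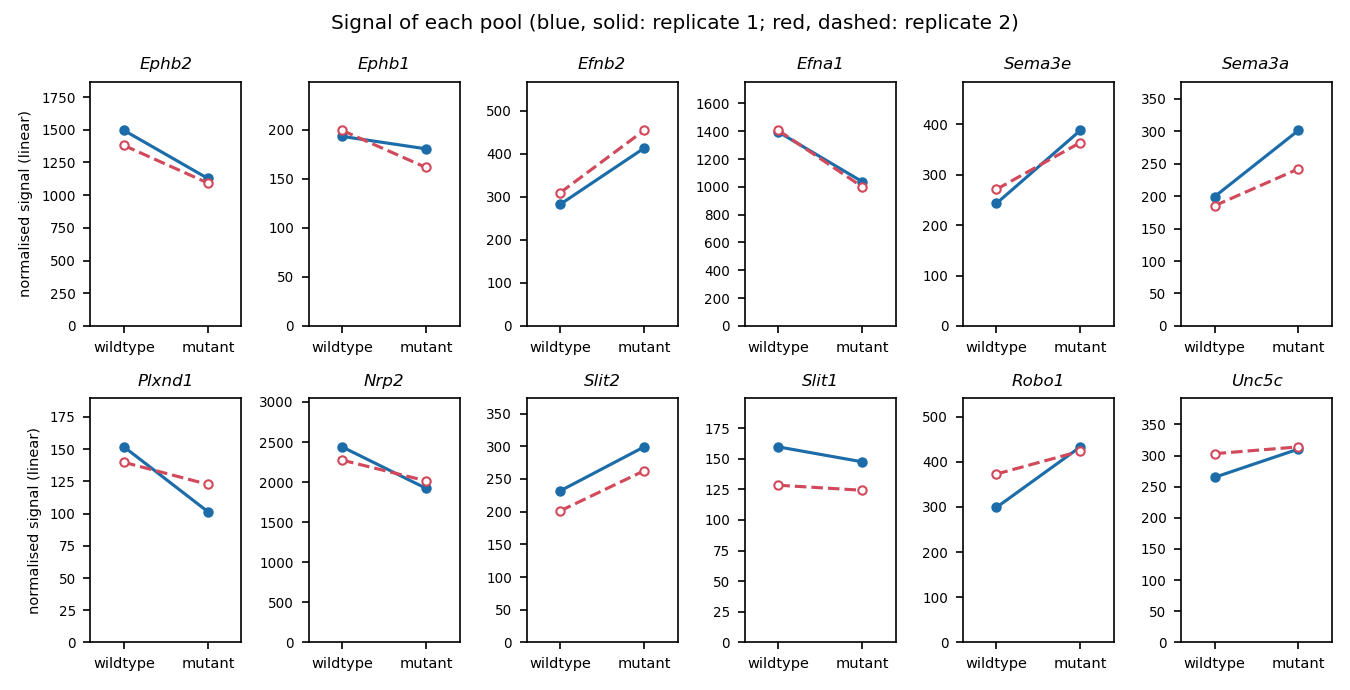
Normalised signal (y axis, linear scale from 0) of the wildtype and mutant pools for the 12 members with the largest absolute log2 ratio in their group, with replicate 1 as a solid blue line and replicate 2 as a dashed red line. Lines rise on both arrays for Efnb2, Sema3e, Sema3a, Slit2, Robo1 and Unc5c and fall on both for Ephb2, Ephb1, Efna1, Plxnd1, Nrp2 and Slit1, while the steepness of the lines of Plxnd1 and Robo1 differs between the arrays.

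Among the semaphorins, all 11 members were detected and the median was 0.18, with 0.07 on replicate 1 and 0.31 on replicate 2. That median is the value of Sema6d, which was detected in the mutant pool alone, and without it the median of the other 10 was 0.15. Of the 11, 6 lay above 0 on both arrays, 2 below on both, and 3 changed sign. The class 3 genes Sema3b (0.22 ± 0.06) and Sema3f (0.19 ± 0.17), the latter the ligand of neuropilin 2, followed Sema3e and Sema3a without passing 1.3-fold. Sema3d had -0.12 ± 0.06. Sema3c, a class 3 gene needed for outflow tract development, had -0.51 on replicate 1 and 0.58 on replicate 2. It was the brighter in Cy3 on both arrays whichever pool was in Cy3, so its mean of 0.04 ± 0.77 measures no difference between the pools.

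The transmembrane semaphorins were less far from 0. Sema6a, a ligand of A-class plexins, had 0.21 ± 0.13 and a second probe at 0.17. Sema6d passed detection through the mutant pool alone, since its wildtype channel did not clear the background flag on replicate 1 or 2. Its measured signals averaged 75.2 for the mutant and 66.2 for the wildtype pool. That is 1.14-fold, a measured ratio and not a lower bound. Its mean log2 value of 0.18 was smaller than the SD of 0.22, and the arrays differed. Signals were 72.5 in the mutant and 71.0 in the wildtype pool on replicate 1, and 78.1 and 61.8 on replicate 2. Sema4c had 0.12 ± 0.22 with opposite signs, Sema5a -0.03 ± 0.11 and Sema5b -0.05 ± 0.03.

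Plexins and neuropilins, the receptors of the semaphorins, had a median of -0.02 over 8 detected of 10 and none passed 1.3-fold. Plxnd1, the plexin of endothelium and the receptor of semaphorin 3E, was lowest. Its signal was 101.5 in the mutant and 151.8 in the wildtype pool on replicate 1, and 122.7 and 139.8 on replicate 2. The mutant was dimmer on each array but by unequal factors, with a log2 ratio of -0.38 ± 0.28. Nrp2, a co-receptor for class 3 semaphorins and vascular growth factors, had 1922.8 and 2439.7 on replicate 1 and 2016.1 and 2274.7 on replicate 2. It was lower on each array, at -0.26 ± 0.12, while its dimmer probe gave 0.07. The brighter lies at chr1:63211096-63211155 and the dimmer at chr1:63208352-63208411.

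The remaining receptors of this group stood near 0. Nrp1, the neuropilin of Sema3a, changed sign and had a mean of 0.00 ± 0.21. Plxna3 had 0.14 ± 0.02, Plxna2 had 0.14 ± 0.18 and Plxna1 -0.05 ± 0.02. Plxna4 (-0.14 and 0.05) and Plxnc1 (0.25 and -0.08) changed sign. For Plxna2 the brighter probe had a non-uniform spot on replicate 1, and a dimmer probe stood for the gene.

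Among the slits, 3 genes were detected and Slit2 alone stood apart. Slit2 encodes a secreted repellent made by the floor plate. Its signal was 299.1 in the mutant and 231.8 in the wildtype pool on replicate 1, and 262.6 and 201.2 on replicate 2. The mutant pool was brighter on each array by a closely matching factor, with a log2 ratio of 0.38 ± 0.01, just short of 1.3-fold on replicate 1 alone. It passed 1.3-fold on each array with a normexp offset of 16 (0.43 and 0.46) and with the software's ratio (0.45 and 0.61). Its dimmer probe did not show this and gave -0.02 ± 0.01. The probes lie far apart within the gene's region, at chr5:46933834-46933893 and chr5:46848453-46848512. Slit1 had 147.4 and 159.6 on replicate 1 and 124.2 and 128.3 on replicate 2, with a log2 ratio of -0.08 ± 0.05, and Slit3 changed sign (-0.13 and 0.03).

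All 6 members of the Dcc, Unc5 and Robo receptors were detected, with a median of 0.00. Robo1, a receptor for slits, was the farthest from 0, at 433.0 in the mutant and 298.9 in the wildtype pool on replicate 1 and 423.5 and 372.9 on replicate 2. Both arrays had the mutant pool brighter, with a log2 ratio of 0.36 ± 0.25, and its dimmer probe gave -0.02 ± 0.05. Unc5c, which turns the netrin response to repulsion, had 310.4 and 265.0 on replicate 1 and 313.9 and 303.0 on replicate 2, a log2 ratio of 0.14 ± 0.13. Its dimmer probe gave -0.05. Unc5a (0.04 ± 0.03), the vascular netrin receptor gene Unc5b (-0.04 ± 0.05), Robo2 (-0.08 ± 0.11) and Dcc (-0.06 ± 0.16, with opposite signs) lay near 0.

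**Figure D4:**
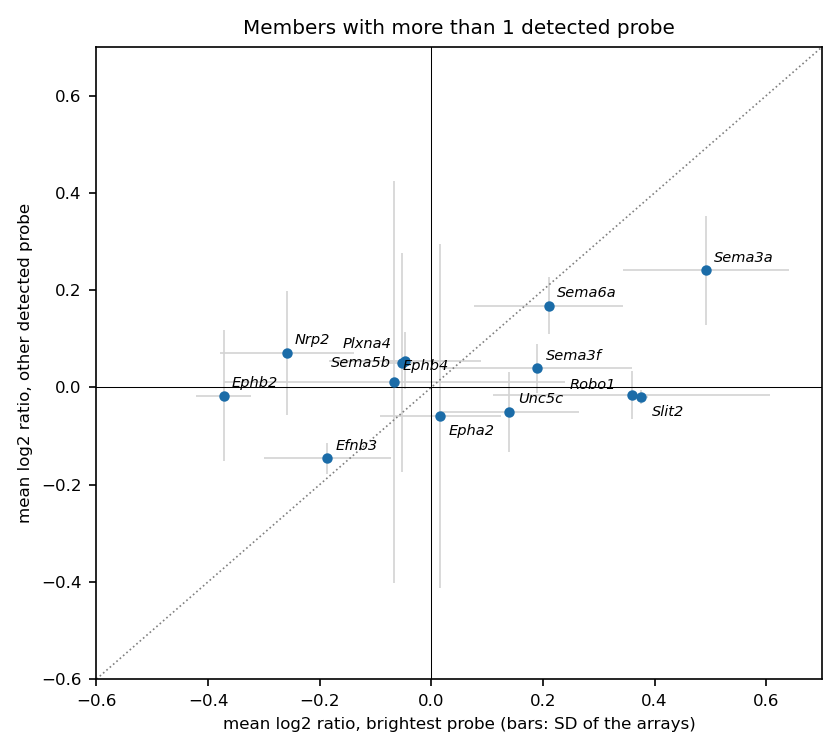
Mean log2 ratio of mutant over wildtype from the brightest probe (x axis) against the other detected probe (y axis) for the 13 members with more than 1 detected probe. Bars are the SD of the arrays and the dotted line marks equal values; Slit2, Robo1, Ephb2 and Nrp2 lie far from that line because the other probe is near 0, whereas Sema3a, Sema6a and Efnb3 lie nearer to it.

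For 13 members a second probe was detected as well, and in 11 of them the brightest probe was the farther from 0. The probes of 5 members (Ephb2, Efnb3, Sema3a, Sema3f and Sema6a) had means of the same sign, with the dimmer Ephb2 probe at -0.02. In the other 8 (Epha2, Ephb4, Sema5b, Plxna4, Nrp2, Slit2, Unc5c and Robo1) the signs differed. With the median over probes, Slit2 moved from 0.38 to 0.18, Robo1 from 0.36 to 0.17, Ephb2 from -0.37 to -0.19, and Sema3a, whose dimmer probe gave 0.24 ± 0.11, from 0.49 to 0.37, which no longer passed 1.3-fold on each array. Efnb2, Efna1, Sema3e and Plxnd1 each had 1 probe, so no such comparison can be made for them.

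**Figure D5:**
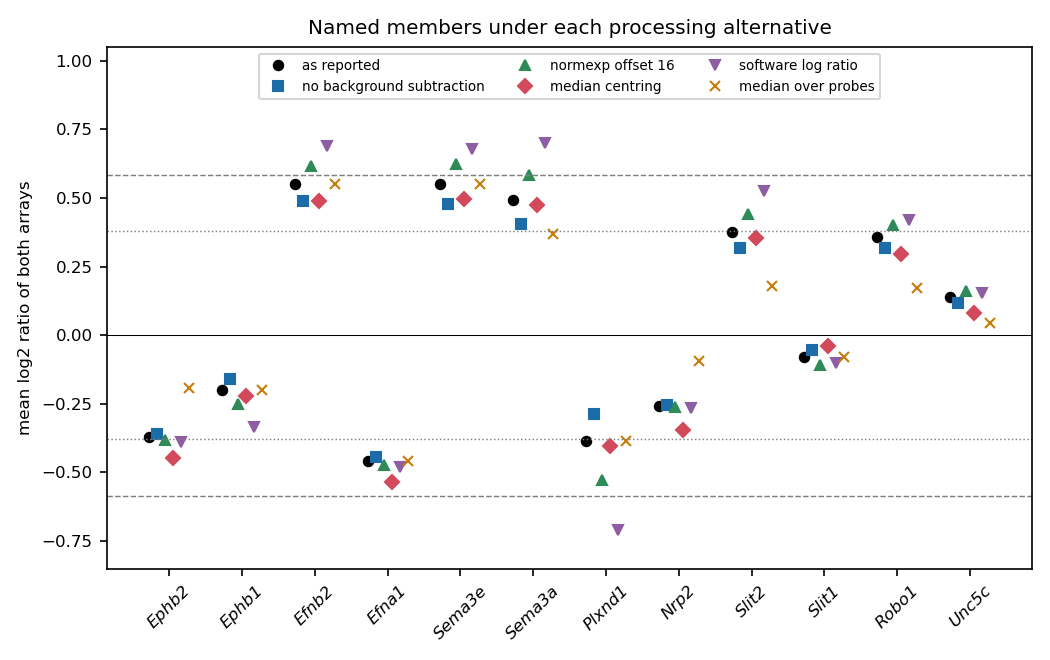
Mean log2 ratio of mutant over wildtype over both arrays (y axis) for 12 members (x axis) as reported and under 5 alternatives of the processing; dashed lines mark 1.5-fold and dotted lines 1.3-fold. Efnb2, Sema3e and Efna1 keep their direction and lie past 1.3-fold in the mean in every alternative drawn, Sema3a falls to 0.37 with the median over probes, and Plxnd1 ranges from -0.29 to -0.71.

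The values of ligands are set here beside those of receptors they are known to bind. Beside Sema3e at 0.55 ± 0.18, Plxnd1 had -0.38 ± 0.28. Beside Sema3a at 0.49 ± 0.15, Nrp1 had 0.00 ± 0.21. Both pairings set a higher ligand against a receptor that was not higher. Efnb2 at 0.55 stood beside Ephb4 at -0.07 ± 0.31 and Ephb2 at -0.37 ± 0.05, and Efna1 at -0.46 beside Epha2 at 0.02 ± 0.11. Sema3f at 0.19 ± 0.17 stood beside Nrp2 at -0.26 ± 0.12. Slit2 and Robo1 had 0.38 and 0.36 by their brightest probes, and neither value was shared by the second probe, while Robo2, also a receptor of Slit2, had -0.08 ± 0.11. Differences between the members of a pair were not tested.

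A list of 27 related guidance genes held further members of these families beside genes of other families that bind the same receptors or act with them, such as Rgma, Rgmb and the Flrt genes. Of the 19 detected, 1 was higher by 1.5-fold on each array and none lower, against 0.209% and 0.232% of all detected genes. The median was 0.01. Rgma, which encodes a repulsive ligand of neogenin and belongs to none of the 4 families, was the one past the rule (1.14 and 0.85, with an SD of 0.21), and its second probe gave 0.01 with opposite signs. Robo4, the Robo receptor of endothelium, had -0.26 ± 0.04.

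Downstream effectors were read from fixed lists too. Among 23 detected effectors of semaphorin and plexin signalling, 1 was higher by 1.5-fold on each array, against 0.209% of all detected genes. It was Dpysl4, a collapsin response mediator gene (0.62 and 0.66), and its dimmer probe gave 0.43. The vascular receptor gene Kdr, which can act with plexins, had -0.60 ± 0.33, and the median of the list was -0.04. None of 18 Eph effectors passed either rule (median -0.02), with the kinase gene Fyn at -0.28 and Chn2, a Rac regulator, at -0.15. None of 17 netrin and slit effectors passed (median 0.08), with the kinase gene Pak1 at 0.39 ± 0.10 and the actin regulator gene Vasp at -0.21 ± 0.35. Of all detected genes, 0.538% were higher and 0.751% lower at 1.3-fold on each array. Beside those shares, both counts of 0 are near background and are no result about these effectors.

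Markers of cell types in the dissected region moved alongside some of these genes. Of 14 detected endothelial markers, 13 had ratios under 0 on replicates 1 and 2. The list's median was -0.39, and 3 were lower by 1.5-fold on each array, against 0.232% of all detected genes. The summed signal of the 14 was 5312 and 5010 in the mutant and 7688 and 7299 in the wildtype pool. This list was chosen with earlier results of these data known, so its direction is not independent evidence. Plxnd1, Robo4, Efna1 and the brighter probe of Nrp2 lay in the same direction, while the dimmer Nrp2 probe gave 0.07. Nrp1, Unc5b and Ephb4 stood near 0, and Efnb2 lay in the other direction. Of 15 endothelial markers listed, Erg was not detected, and the part of this list in the members' values was not tested.

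Some markers of somites and paraxial mesoderm moved the other way. Of 13 detected, 6 were higher by 1.5-fold on each array and none lower, against 0.209% and 0.232% of all detected genes. The median was 0.30, with 7 above 0 on both arrays, 3 below 0 on both and 3 that changed sign. Pax3 (0.02), Mesp2 (-0.02) and Tbx6 (0.06) were among those near 0. The summed signal of the 13 was 11938 and 11731 in the mutant against 8521 and 8348 in the wildtype pool. This list held genes already known to be high in these samples, so its direction is not independent evidence. Efnb2, Sema3e and Sema3a lay in the direction of the 6 higher markers, and the part of this list in their values was not tested. Gut endoderm markers had 3 of 10 higher by 1.5-fold on each array (median 0.24), Nepn, Trh and Spink1, against 0.209% of all detected genes. The gut endoderm list too was chosen with earlier results of these data known, so its direction is not independent evidence. Neural tube markers (median 0.06), postmitotic neurons (0.04), neural crest (0.04), notochord and floor plate (0.02) and lateral plate and intermediate mesoderm (-0.01) had medians nearer 0. Of 9 detected neural tube markers, 1 was higher by 1.5-fold on each array, Sox2 (0.75 and 0.86), against 0.209% of all detected genes. In the rest of these lists none passed 1.5-fold. Each held 1 gene lower by 1.3-fold on each array, against 0.751% of all detected genes. These were Mnx1, Ets1, T and Foxf2, in the order of the lists. Ets1 is also in the endothelial list, and the value of T is given above.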

How the data were processed

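Posterior tissue of mouse embryos was read on 2 dye-swapped arrays, 1 pool per genotype. The deposited files hold spot intensities (mean signals and median local backgrounds) and the software's log10 ratio, made with Agilent Feature Extraction. Its version is 9.5.3 per the submitters' processing notes and 7.5.1 per the file headers. Intensities were corrected with limma 3.58.1 in R 4.3.3 (normexp, offset 50), normalised within each array by loess with control spots at weight 0, and turned to log2 mutant over wildtype. The offset draws ratios of dim genes toward 0. Non-uniform spots were left out, spots of a probe averaged, and the brightest detected probe stood for a gene. For the signals, mean intensities were matched between the 2 arrays (Aquantile), which left the ratio within each array unchanged. The size rule was 1.5-fold in 1 direction on each array, with 1.3-fold as a lower one. All 50 members are named, with signals for at least the 2 largest ratios per group of members where 2 were available. Genes of the related-gene and effector lists are named when past the rule or largest. Marker lists are given as medians and counts, with few of their genes named. Members and lists were chosen with earlier results of these data known. Gene order and promoters came from RefSeq (GRCm38.p6).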

Additional observations from a re-analysis of the deposited data

How the results depend on the processing

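At 1.5-fold on each array no member was higher or lower as reported, nor with no background subtraction, median centring, no detection filter, the median over probes, a 2-fold rule or the mean of both arrays. The count of higher members was 1 with a normexp offset of 16, 2 with the software's ratio and 0 to 2 on single arrays. The share of all detected genes higher by that rule was 0.306%, 0.642%, and 0.987% on replicate 2 and 0.356% on replicate 1, against 0.209% as reported. At 1.3-fold it was 3, with 1 lower; the counts at 1.3-fold under the other processing were chosen after seeing the data. The median over all members was 0.021 with median centring, 0.034 with the software's ratio and 0.000 to 0.029 on single arrays. That of ephrins was -0.158 with the software's ratio and -0.163 to -0.021 on single arrays. That of plexins and neuropilins was 0.047 with median centring and -0.103 to -0.011 on single arrays. The cause was not tested. Of 45 members, 5 changed the sign of their mean with median centring, 2 with the software's ratio, 2 with the median over probes, 1 with the offset of 16 and 0 with no background subtraction. Dim genes are limited by signal over background. No paired analysis was possible because both pools share each array and the ratio within an array is already the comparison.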

Other observations

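Of the 50 guidance genes, 5 were not detected. Epha3, the ephrin gene Efna5, Plxnb2 and the netrin gene Ntn1 were well above background in 0 of 4 channels, and no level is given for them. Plxnb1 was left out for a non-uniform spot on replicate 1, and it had a log2 ratio of -0.04 on replicate 2.

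Some members lie next to each other in the order of genes in RefSeq's GRCm38.p6 annotation. Efna1, Efna3 and Efna4 are neighbours on chromosome 3 with 0 protein-coding genes between them, and had log2 ratios of -0.46, -0.03 and -0.02. Sema3a and Sema3d are neighbours on chromosome 5 and had 0.49 and -0.12, while Sema3e, with 3 protein-coding genes between it and Sema3a, had 0.55. Robo1 and Robo2, neighbours on chromosome 16, had 0.36 and -0.08. Differences between neighbours were not tested.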
